A study of Mus musculus with 12 samples.

Results

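The precursors of the miR-17-92 and miR-106b-25 clusters were followed across 12 small RNA libraries of mouse cerebral cortex. Members were taken by name: 10 precursors were named (mmu-mir-17, mmu-mir-18a, mmu-mir-19b-1, mmu-mir-19b-2, mmu-mir-20a, mmu-mir-92a-1, mmu-mir-92a-2, mmu-mir-106b, mmu-mir-93 and mmu-mir-25), and 7 of them were among the 589 precursors with a value. The other 3 (mmu-mir-19b-1, mmu-mir-19b-2 and mmu-mir-92a-2) were not analysed here. Of the 7, mmu-mir-18a was listed at 0 in every library, which left 6 with a value above 0 in some library.

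The study asked how long-term alcohol drinking alters cortical miRNAs and whether the response depends on TLR4, the innate immune receptor for bacterial lipopolysaccharide. Female C57BL/6J mice, 7 weeks old at the start, were either wild type (WT) or TLR4 knockout (TLR4-KO), and drank for 5 months either water or water with 10% (v/v) ethanol (EtOH). The water groups are called WT and TLR4-KO and the alcohol groups WT + EtOH and TLR4-KO + EtOH, with 3 libraries in each, and each library was a pool of cortex RNA of 3 mice. The knockout could not be checked in these libraries, because they hold small RNAs and not the Tlr4 messenger RNA.

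Both clusters are polycistrons, in which several miRNA hairpins are cut from 1 primary transcript. The miR-17-92 cluster lies in a long non-coding host gene that MYC and E2F factors activate, and it is known for promoting proliferation and survival of dividing cells, including neural progenitors. The miR-106b-25 cluster is its paralog inside Mcm7, a gene for a subunit of the replicative DNA helicase. Their miRNAs repress, among other messengers, those of the cell cycle inhibitor p21 (Cdkn1a) and the pro-apoptotic protein Bim (Bcl2l11). A further paralog, the miR-106a-363 cluster, lies on the X chromosome and holds mmu-mir-19b-2 and mmu-mir-92a-2.

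On the mouse build GRCm38, the miR-17-92 cluster spans 836 bases at chr14:115043671-115044506 on the plus strand, in exon 2 of the long non-coding gene Mir17hg. Its hairpins run in the order mir-17, mir-18a, mir-19a, mir-20a, mir-19b-1 and mir-92a-1. The miR-106b-25 cluster spans 498 bases at chr5:138165321-138165818 on the minus strand of Mcm7, in the order mir-106b, mir-93 and mir-25. Its 3 hairpins lie within introns of 2 annotated Mcm7 transcripts, and mir-93 and mir-25 also overlap exon 1 of 1 annotated transcript. The miR-106a-363 cluster spans 875 bases at chrX:52741693-52742567 on the minus strand.

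**Figure D1:**
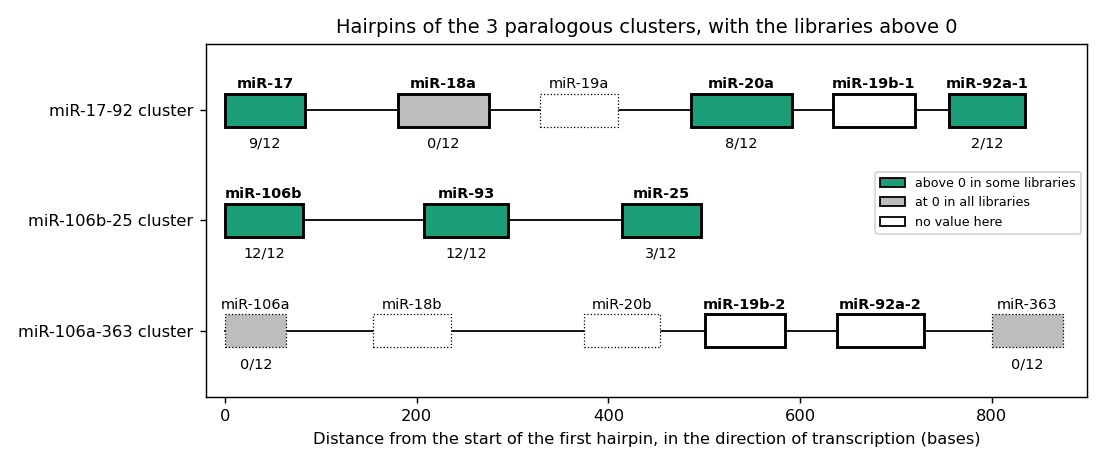
The hairpins of the 3 paralogous clusters are drawn to scale along the direction of transcription, with the distance in bases from the first hairpin on the horizontal axis and, for each hairpin, the number of the 12 libraries above 0. All 3 hairpins of miR-106b-25 had a value above 0 in some library, against 3 of 6 in miR-17-92 (4 with a value) and 0 of 6 in miR-106a-363 (2 with a value). Bold names and solid outlines mark the 10 named precursors.

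The miRNAs fall into families by their seed, the bases 2 to 8 that pair with target messengers, shown in capitals. The sequences are the RefSeq mature miRNAs for GRCm38.p6, written 5′ to 3′. The first 4 share 1 seed and come from both clusters, which is why members of different clusters can share targets.
mmu-miR-17-5p: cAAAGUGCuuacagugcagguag
mmu-miR-20a-5p: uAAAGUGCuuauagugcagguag
mmu-miR-106b-5p: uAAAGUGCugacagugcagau
mmu-miR-93-5p: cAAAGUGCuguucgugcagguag
The next pair, again 1 from each cluster, shares another seed.
mmu-miR-92a-3p: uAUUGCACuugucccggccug
mmu-miR-25-3p: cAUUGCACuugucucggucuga
The last pair shows the seeds of the 2 families of miR-17-92 for which no value above 0 was seen or no value was analysed.
mmu-miR-18a-5p: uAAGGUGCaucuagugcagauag
mmu-miR-19b-3p: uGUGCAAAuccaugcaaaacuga

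Some members are close enough in sequence for reads to be hard to assign. miR-17-5p and miR-20a-5p differ by 2 substitutions, C1U and C12U, counted from the 5′ end of miR-17-5p. miR-17-5p and miR-106a-5p differ by 1, U10A. miR-92a-3p has the same sequence from mmu-mir-92a-1 and from mmu-mir-92a-2, which was not analysed here. How reads that match several precursors were shared out is not given in the sources used here. The values of mmu-mir-17, mmu-mir-20a and mmu-mir-92a-1 are therefore uncertain in this respect. The values are per precursor and do not tell the 5p from the 3p arm.

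The values are the authors' normalized scores, a log-like scale without a unit on which each library has the same highest value, 134.8. A difference on it is not a fold change, no read counts stand beside it, and a 0 does not show that a miRNA was absent. Between 216 and 270 precursors were above 0 per library, most in WT (260 to 270) and fewest in TLR4-KO (216 to 262). The lowest value above 0 ranged from 1.25 to 14.1 between libraries, so that a low member could sit at 0 in one library and be listed in another. Of the 100 precursors with a mean between 5 and 30, 63.0% had a 0 in some library, whereas 0 of the 153 with a mean above 30 did. No 2 libraries were identical (r between 0.938 and 0.988 over the 66 pairs). Of the 8 neuronal precursors listed, such as those of miR-124 and miR-128, mmu-mir-137 was at 0 in some libraries and the others were above 0 in all. Of the 3 leukocyte precursors mmu-mir-223 was at 0 in every library while mmu-mir-142a (28.2 to 55.5) and mmu-mir-150 (68.7 to 81.1) were not. Of the 3 choroid plexus and ciliated cell precursors mmu-mir-449a was at 0 in every library while mmu-mir-204 (79.9 to 93.7) and mmu-mir-34c (39.1 to 53.6) were not.

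Among the precursors above 0 in each library, mmu-mir-93 lay above the middle in all 12 (percentiles 54.1 to 68.9). The other members lay below the middle wherever they were above 0. mmu-mir-93, which shares the miR-17 seed, was the highest, with a mean of 48.4 ± 4.17 (SD, n = 12 libraries) and the 96th place among the 324 precursors with a value above 0 anywhere. Its neighbour in the cluster, mmu-mir-106b, came next at 19.7 ± 6.90 and rank 187. These were the members above 0 in all 12 libraries. In miR-17-92, mmu-mir-17 had a mean of 15.1 ± 11.7 (rank 200, above 0 in 9 libraries) and mmu-mir-20a of 9.64 ± 8.19 (rank 220, above 0 in 8). The miRNAs of the other seed were lowest, with mmu-mir-92a-1 at 2.33 ± 5.59 (rank 282, above 0 in 2) and mmu-mir-25 at 1.57 ± 3.35 (rank 291, above 0 in 3). Whether the values were divided by length is not given in the sources used here, and the mature miRNAs differ little in length.

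The order held within libraries at its top and not further down. mmu-mir-93 exceeded mmu-mir-106b in 12 of 12 libraries, by 9.69 to 36.2 with a median of 31.3. mmu-mir-106b exceeded mmu-mir-17 in 7 of 12, so these 2 neighbours did not differ beyond their spread. mmu-mir-17 exceeded mmu-mir-20a in 8 libraries, fell below it in 2 and was equal to it, at 0, in 2. The means of mmu-mir-92a-1 and mmu-mir-25 each lay below their own SD and could not be ordered.

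**Figure D2:**
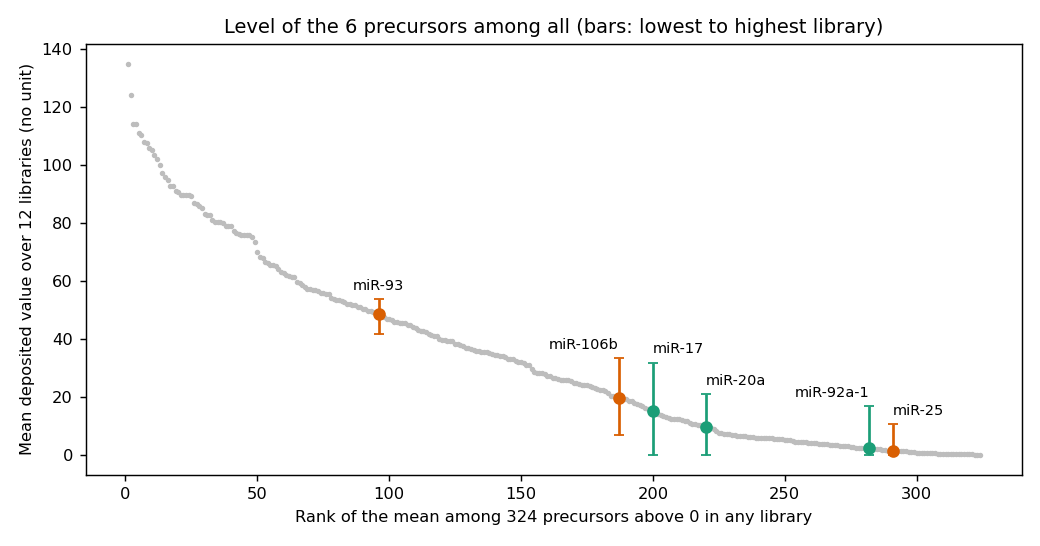
The mean deposited value over 12 libraries (vertical axis, no unit) is plotted against its place among those 324 precursors, with bars from the lowest to the highest library for the 6 members (orange, miR-106b-25 and green, miR-17-92). mmu-mir-93 stands alone at rank 96, and the bars of the members from mmu-mir-106b at rank 187 downwards overlap.

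Hairpins cut from the same primary transcript did not share one level. The 3 of miR-106b-25 ranged in mean from 1.57 to 48.4, and mmu-mir-93 exceeded mmu-mir-25 by 40.3 to 53.2 in every library. In miR-17-92, mmu-mir-17 and mmu-mir-20a were both above 0 in 7 libraries, mmu-mir-17 alone in 2, mmu-mir-20a alone in 1 and neither in 2. Across the 12 libraries mmu-mir-93 ranked 68 in likeness to mmu-mir-106b among 189 other precursors above 0 in all libraries, with a Pearson r of 0.11, given as a description of libraries that share depth and normalization.

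For each of the 2 members above 0 in every library, the precursors most like it did not include the other. Candidates were limited to precursors above 0 in all 12 libraries, so no further cluster mate could be named. For mmu-mir-93 they were mmu-mir-143 (r = 0.888), mmu-mir-26b (r = 0.834) and mmu-mir-192 (r = 0.828). For mmu-mir-106b they were mmu-mir-338 (r = 0.891), mmu-mir-1839 (r = 0.889) and mmu-let-7a-2 (r = 0.841). mmu-mir-143 is known from vascular smooth muscle and mmu-mir-338 from oligodendrocytes.

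Group comparisons used limma on all 589 precursors, with a call at a Benjamini-Hochberg adjusted p under 0.05. Of the 589, 265 were at 0 in all libraries, mmu-mir-18a among them, and could not be called or reach a low p. They still counted in the adjustment. Shares of the 589, here and below, are therefore lower than among the 324 precursors above 0 in any library. No member was called in any of the 7 comparisons made. With limma the unadjusted p was under 0.05 for 1 of 7 members in WT + EtOH vs. WT, beside 74 of all 589 precursors. It was so for 2 in TLR4-KO vs. WT (72 of 589) and 2 in TLR4-KO + EtOH vs. TLR4-KO (41 of 589). TLR4-KO + EtOH vs. WT + EtOH gave 0 (27 of 589) and the difference of the alcohol effects 1 (74 of 589). The averages over genotype or treatment gave 0 (50 of 589 for alcohol and 53 of 589 for the genotype). Because each library is a pool, these p values measure the spread between pools and not between mice. In whole cortex, fewer cells of a type and less RNA per cell cannot be told apart.

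**Figure D3:**
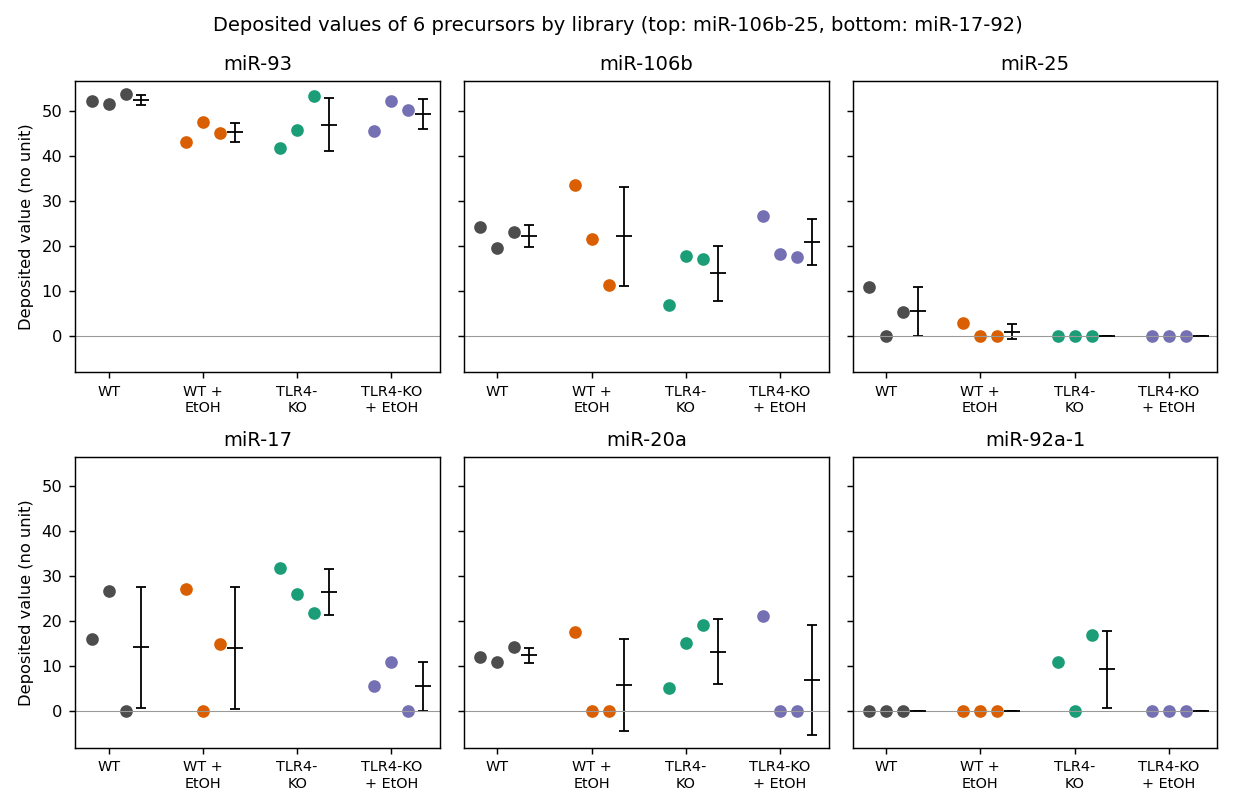
Each panel shows the deposited values (vertical axis, no unit) of 1 precursor in the 4 groups, with a point per library and the mean ± SD of the 3 libraries. In WT + EtOH all mmu-mir-93 values (43.1 to 47.4) lie below those of WT (51.5 to 53.6), while mmu-mir-17, mmu-mir-20a, mmu-mir-25 and mmu-mir-92a-1 have libraries at 0.

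mmu-mir-93 was lower after alcohol in the wild type, without passing the adjusted test. The WT libraries had 52.1, 51.5 and 53.6 (52.4 ± 1.10, SD, n = 3), and the WT + EtOH libraries had 43.1, 47.4 and 45.0 (45.2 ± 2.19). The groups did not overlap, and the place of mmu-mir-93 within a library went from ranks 82 to 86 in WT to ranks 99 to 113 in WT + EtOH. As the libraries have nearly the same levels, the rank follows from the value and is not a separate observation. The difference was -7.25 (SE 2.86, 95% interval -13.8 to -0.690, limma p = 0.0341, adjusted p = 0.309), and the two-sided exact permutation p was 0.1, the smallest that 3 against 3 libraries can give. Over all precursors 10 of 589 (1.7%) were called in this comparison, and 17.3% of the 324 above 0 were lower without overlap and 13.3% higher, so that the 1 member of 6 lower and 0 higher are near this background.

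In the knockout mmu-mir-93 was spread more widely. The TLR4-KO libraries had 41.8, 45.7 and 53.2 (46.9 ± 5.81) and the TLR4-KO + EtOH libraries had 45.6, 52.1 and 50.2 (49.3 ± 3.36), so that the groups overlapped. TLR4-KO + EtOH vs. TLR4-KO differed by 2.38 (SE 2.86, interval -4.18 to 8.94, limma adjusted p = 1.0). TLR4-KO vs. WT differed by -5.50 (SE 2.86, interval -12.1 to 1.06, limma adjusted p = 0.532), and it shares the WT libraries with the comparison above. It was -8.67 without TLR4-KO replicate 3 and -2.95 without TLR4-KO replicate 1. The alcohol difference was -7.25 in the wild type and 2.38 in the knockout. The test of the difference between them gave 9.63 (SE 4.05, interval 0.354 to 18.9, limma adjusted p = 0.361), without a call. In this test of the difference 7 of 589 precursors (1.19%) were called.

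With the number of precursors above 0 in each library as a covariate, mmu-mir-93 was called in 3 comparisons. The difference was then -10.3 in WT + EtOH vs. WT (limma adjusted p = 0.0251, range over the alternatives 0.0251 to 0.698), -9.81 in TLR4-KO vs. WT (0.0352, range 0.0352 to 1.0) and 14.6 for the difference of the alcohol effects (0.0251, range 0.0251 to 0.641). The same covariate raised the calls over all precursors from 10 to 59, from 15 to 63 and from 7 to 58, so that many other precursors changed call as well. Of the 7 lists of cell type precursors, 2 had sums that did not overlap between WT and WT + EtOH. The neuronal sum was 369.6 to 375.8 in WT and 390.0 to 410.5 in WT + EtOH. Within it mmu-mir-137 was lower (-4.56) and the others higher. The sum for microglia and inflammation (mmu-mir-146a and mmu-mir-155) was 46.4 to 48.6 and 37.8 to 42.5. It rests on mmu-mir-146a (-6.21, limma adjusted p = 0.806), as mmu-mir-155 differed by 0. The vascular sum overlapped (196.1 to 203.8 and 194.7 to 197.3), but its members went in opposite directions. After alcohol mmu-mir-143 (-6.45) and mmu-mir-126a (-6.58) were lower and mmu-mir-145a (8.09) was higher, none of them called. mmu-mir-143 was named above as most like mmu-mir-93 over these same libraries, so its lower level is not a separate observation. The part of these lists in the result was not tested.

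**Figure D4:**
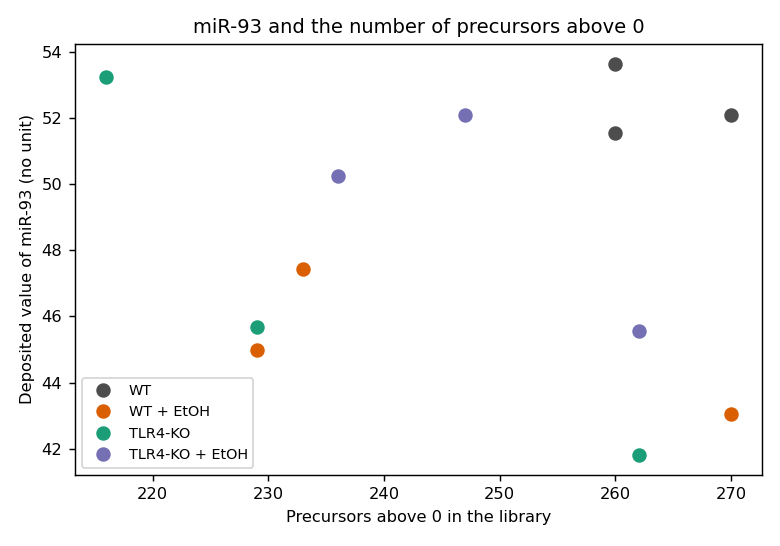
The deposited value of mmu-mir-93 (vertical axis, no unit) is plotted against the number of precursors above 0 in the library (horizontal axis), with a point per library coloured by group. The WT libraries lie at 260 to 270 precursors and 51.5 to 53.6, TLR4-KO replicate 3 reaches 53.2 at 216 precursors, and the WT + EtOH library at 270 has the lowest value of its group, 43.1.

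mmu-mir-106b, the first hairpin of its cluster, was lowest in TLR4-KO. Its values were 24.2, 19.5 and 23.0 in WT (22.2 ± 2.44) and 6.87, 17.8 and 17.0 in TLR4-KO (13.9 ± 6.08), which did not overlap. The difference was -8.36 (SE 5.54, interval -21.0 to 4.33, limma adjusted p = 0.756, exact permutation p = 0.1, again the smallest possible). In TLR4-KO vs. WT 15 of 589 precursors (2.55%) were called, and 15.4% of 324 were lower without overlap and 13.0% higher, close to the 1 member of 6 that was lower. A second normalized table of these libraries, given with the paper and not used here, places TLR4-KO replicate 1, the lowest library, differently for mmu-mir-106b. The summed level of the 3 oligodendrocyte precursors was 42.8 to 45.6 in WT and 29.2 to 36.5 in TLR4-KO. Its members mmu-mir-338, mmu-mir-219a-2 and mmu-mir-219a-1 differed by -5.64, -4.56 and 0. mmu-mir-338 was named above as most like mmu-mir-106b over these same libraries, so its lower level is not a separate observation. The part of this list in the result was not tested.

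After alcohol the mmu-mir-106b values scattered. The WT + EtOH libraries had 33.4, 21.5 and 11.3 (22.1 ± 11.0), and the oligodendrocyte sum in that group ranged from 41.0 to 67.9. The TLR4-KO + EtOH libraries had 26.7, 18.1 and 17.5 (20.8 ± 5.15), above all of TLR4-KO except that 17.5 lay below its highest value of 17.8. The differences were -0.15 in WT + EtOH vs. WT (interval -12.8 to 12.5) and 6.87 in TLR4-KO + EtOH vs. TLR4-KO (interval -5.81 to 19.6), with a limma adjusted p of 1.0 in both.

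mmu-mir-25, which carries the other seed, was seen near the floor. It was above 0 in 2 WT libraries (10.9 and 5.23, with 0 in replicate 2) and in 1 WT + EtOH library (2.72), and was listed at 0 in all 6 knockout libraries. The TLR4-KO vs. WT difference of -5.37 (SE 2.27, limma adjusted p = 0.379, exact permutation p = 0.4, the smallest its ties at 0 allow) therefore rests on 2 libraries. Without WT replicate 2 it was -8.05 (limma adjusted p = 0.0488, range over the alternatives 0.0488 to 0.708). The lowest value above 0 was as high as 14.1 in 1 of the TLR4-KO libraries, above any mmu-mir-25 value.

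In miR-17-92, mmu-mir-17, the first hairpin of the transcript, was highest in TLR4-KO and lower in all 3 TLR4-KO + EtOH libraries. The TLR4-KO libraries had 31.9, 26.1 and 21.8 (26.6 ± 5.08) and the TLR4-KO + EtOH libraries 5.70, 10.9 and 0 (5.54 ± 5.46), without overlap. The difference was -21.1 (SE 8.21, interval -39.9 to -2.24, limma p = 0.0325, adjusted p = 0.637, exact permutation p = 0.1). In this comparison 2 of 589 precursors (0.34%) were called and 4.01% of 324 were lower without overlap and 7.1% higher, beside 1 member of 6 lower and 0 higher. The oligodendrocyte sum did not overlap in this comparison either, with 40.4 to 45.2 after alcohol against 29.2 to 36.5 without it, and its part in the result was not tested. The second normalized table, not used here, places TLR4-KO + EtOH replicate 1 differently for mmu-mir-17, so that this separation is uncertain.

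In the wild type mmu-mir-17 was scattered over the same range in both groups. WT had 16.0, 26.7 and 0 (14.2 ± 13.4) and WT + EtOH 27.1, 0 and 15.0 (14.0 ± 13.6), a difference of -0.20 (interval -19.0 to 18.6, limma adjusted p = 1.0). The alcohol effects in the 2 genotypes differed by -20.9 (SE 11.6, interval -47.5 to 5.76, limma adjusted p = 0.642). Its residual SD of 10.3 was the 9th highest of the 324 precursors, whose median was 4.31. TLR4-KO + EtOH vs. WT + EtOH, in which 3 of 589 precursors (0.509%) were called, gave -8.49 (interval -27.3 to 10.3, limma adjusted p = 1.0), which became -1.97 without WT + EtOH replicate 1 and -15.5 without WT + EtOH replicate 2.

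mmu-mir-20a shares both seed and transcript with mmu-mir-17. Its values were 12.1, 10.9 and 14.2 in WT (12.4 ± 1.68) and 17.6, 0 and 0 in WT + EtOH (5.87 ± 10.2). In the knockout they were 5.23, 15.3 and 19.2 (13.2 ± 7.20) without alcohol and 21.1, 0 and 0 (7.04 ± 12.2) with it. In both genotypes 1 alcohol library thus had the highest value of its pair of groups and the other 2 were at 0. The second normalized table, not used here, orders the libraries differently for mmu-mir-20a as well, so this pattern is uncertain. The differences were -6.54 (SE 7.02, interval -22.6 to 9.54) and -6.19 (SE 7.02, interval -22.3 to 9.88), each with a limma adjusted p of 1.0. With 0 taken as missing they became 5.21 and 7.89, so that their sign rests on the libraries at 0.

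mmu-mir-92a-1, the last hairpin of the cluster, was above 0 in TLR4-KO alone, at 10.9 and 17.0 in replicates 1 and 3 (9.31 ± 8.62), and was at 0 in the other 10 libraries. Its miR-92a-3p is identical to that of mmu-mir-92a-2, so these values may not belong to this hairpin alone. The difference to WT was 9.31 (SE 3.45, limma adjusted p = 0.287, exact permutation p = 0.4, again the smallest its ties allow), and after alcohol in the knockout -9.31 (adjusted p = 0.569). Without TLR4-KO replicate 2, which was at 0, these became 13.96 (limma adjusted p = 0.00410, range over the alternatives 0.00410 to 0.644) and -13.96 (0.0123, range 0.0123 to 1.0), so the call depends on 1 library. mmu-mir-18a was at 0 in all 12 libraries and gave no comparison.

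**Figure D5:**
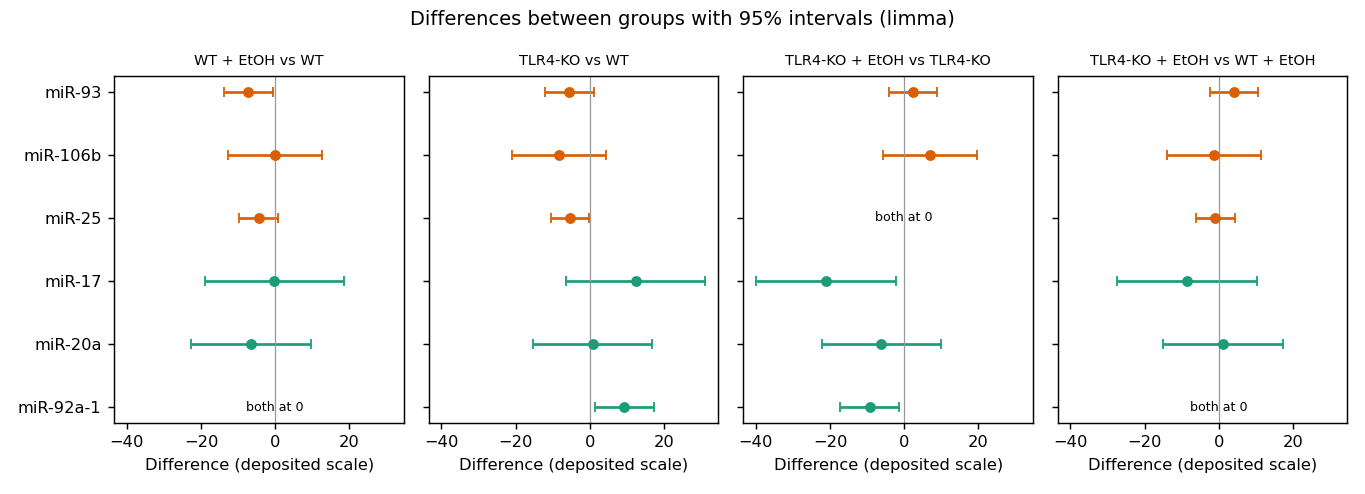
Differences between groups in the deposited values (horizontal axes) are drawn for the 6 members with 95% intervals from limma, with a panel for each of the 4 comparisons between groups. Most intervals include 0, and among the exceptions are mmu-mir-93 in WT + EtOH vs. WT (-13.8 to -0.690) and mmu-mir-17 in TLR4-KO + EtOH vs. TLR4-KO (-39.9 to -2.24).

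In WT + EtOH vs. WT 5 of the 6 members were lower and 0 higher (median -2.33, against 0 over the 324 precursors, of which 46.9% were lower and 47.5% higher). Of those 5, mmu-mir-106b at -0.15 and mmu-mir-17 at -0.20 barely differed from 0. The other comparisons had members in both directions. In TLR4-KO vs. WT 3 were higher and 3 lower (median -2.27, against 0). In TLR4-KO + EtOH vs. TLR4-KO 2 were higher and 3 lower (median -3.09, against 0). TLR4-KO + EtOH vs. WT + EtOH also gave 2 higher and 3 lower (median -0.45, against 0), and 0 of 6 members were separated there, where 4.63% of the 324 precursors were lower and 4.32% higher without overlap.

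Averaged over both genotypes, alcohol left 0 members called, beside 2 of 589 precursors (0.34%), and averaged over both treatments the genotype left 0 called, beside 8 of 589 (1.36%). The exact permutation p within strata was between 0.145 and 0.45 for alcohol and between 0.2 and 0.82 for the genotype over the 6 members. The smallest p possible is 0.005 for a member without ties, and 0.4 for mmu-mir-92a-1 and 0.2 for mmu-mir-25 in the genotype average, because of their libraries at 0.

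The remaining precursors of the family gave little further signal. Of the 7 listed (mmu-mir-19a, mmu-mir-106a, mmu-mir-18b, mmu-mir-20b, mmu-mir-363, mmu-mir-32 and mmu-mir-92b), 4 had a value, and mmu-mir-106a, mmu-mir-363 and mmu-mir-32 were at 0 in all libraries. mmu-mir-92b, which has the seed of miR-25 and is transcribed apart from the clusters, was above 0 in 5 libraries. It had 0, 11.8 and 5.23 in WT, 0 in each WT + EtOH library, 23.5, 17.8 and 0 in TLR4-KO, and 0, 14.5 and 0 in TLR4-KO + EtOH. Its groups overlapped in every comparison between groups, and it was not called by limma in any comparison. The precursors at 0 in all libraries gave no comparison.

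By seed, the AAAGUGC family of miR-17 had 5 precursors in the table and 4 above 0, all of them members. The AUUGCAC family of miR-25 and miR-92a had 5 and 3 above 0. The AAGGUGC seed of miR-18a had 1 precursor, at 0. The highest level of any member was thus that of mmu-mir-93, in the family of the miR-17 seed.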

How the data were processed

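Small RNA of mouse cortex was sequenced in 12 libraries, each a pool of 3 mice. According to the study's methods and the submitters' processing notes, the authors trimmed reads with cutadapt, checked them with FastQC 0.11.6, aligned them with Bowtie2 2.2.5 and TopHat (build GRCm38), counted reads per precursor and normalized them, for which the methods name the trimmed mean of M values (TMM). The deposited unit is a score: a log-like value on nearly the same levels in each library, with 0 kept at 0. The values are not counts, so the table itself carries no depth, and no count model was run. The step that gave the libraries shared levels is not given in the sources used here. Another normalized table of these libraries, given with the paper, was not used. It orders the libraries differently for some members.

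Values were fitted with limma 3.58.1 in R 4.3.3 (1 mean per group, all 12 libraries, no covariate, Benjamini-Hochberg over 589 precursors, threshold 0.05), in 7 comparisons. The script was tested on simulated data. Exact permutation tests over libraries were two-sided. Positions come from GENCODE M21 and sequences from RefSeq, which matched all 10 named precursors. The precursors named are the members, the family list and, for members above 0 in at least 10 libraries, the 3 others with the highest r. Members and lists were chosen with earlier results of these data known. Alternatives were another normalization, centring on mir-181a and mir-181b, a filter, only the groups compared, the replicate block, a covariate, robust moderation, 0 as missing, ranks within libraries (chosen after seeing the data) and leaving out each library.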

Additional observations from a re-analysis of the deposited data

How the results depend on the processing

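The differences of single members kept direction and side of the threshold in 216 of 228 values under other settings and in 300 of 324 with one library left out. With the number of precursors above 0 as a covariate, the members called went from 0 to 1 (mmu-mir-93) in WT + EtOH vs. WT, TLR4-KO vs. WT and the difference of alcohol effects. Leaving out one library gave 0 to 1 members called in every comparison except WT + EtOH vs. WT and TLR4-KO + EtOH vs. WT + EtOH, where the number stayed at 0. The calls were mmu-mir-92a-1 without TLR4-KO replicate 2, in 5 comparisons, and mmu-mir-25 without WT replicate 2, in TLR4-KO vs. WT. Some differences changed sign, none of them past the threshold. In WT + EtOH vs. WT, mmu-mir-106b became 2.37 and mmu-mir-17 5.84 with the covariate, mmu-mir-17 3.67 in rank units, and mmu-mir-20a 5.21 with 0 as missing, as did mmu-mir-20a in TLR4-KO + EtOH vs. TLR4-KO (7.89). Centring on mir-181a and mir-181b turned mmu-mir-20a in TLR4-KO + EtOH vs. WT + EtOH (-0.021) and in the difference of alcohol effects (-0.68, with the covariate -4.69, in rank units -1.17). With one library left out, WT + EtOH vs. WT ranged from -5.79 to 5.22 for mmu-mir-106b and from -7.32 to 6.82 for mmu-mir-17. mmu-mir-20a ranged from -2.15 to 4.82 in TLR4-KO vs. WT, from -5.87 to 7.04 in TLR4-KO + EtOH vs. WT + EtOH and from -6.69 to 6.22 in the difference of alcohol effects. mmu-mir-93 ranged from -0.17 to 5.55 in TLR4-KO + EtOH vs. TLR4-KO, and mmu-mir-106b from -6.71 to 4.31 in TLR4-KO + EtOH vs. WT + EtOH. The cause was not tested. Where one library was left out, its group kept 2.

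Calls over all precursors moved more. They were 10 in WT + EtOH vs. WT (7 to 59 under other settings, 4 to 18 with one library left out), 15 in TLR4-KO vs. WT (13 to 63, 11 to 22), 2 in TLR4-KO + EtOH vs. TLR4-KO (0 to 4, 0 to 4), 3 in TLR4-KO + EtOH vs. WT + EtOH (0 to 6, 0 to 3), 7 in the difference of alcohol effects (3 to 58, 2 to 15), 2 for alcohol over both genotypes (0 to 25, 2 to 8) and 8 for genotype over both treatments (3 to 38, 2 to 12). Same-numbered libraries correlated between -0.078 and 0.240 in their deviations from group means (median 0.058, 4 of 18 pairs over 0.1). The 36 pairs with other numbers correlated between -0.268 and 0.259 (median -0.037). Of 12 libraries, 5 correlated best with their own number. These correlations cannot decide whether the numbers pair the libraries. With the replicate block 0 members were called in each of the 7 comparisons, and calls over all precursors were 13, 24, 3, 2, 3, 3 and 10 in the order above. Without counts, members with values near the floor cannot be told from 0.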
